A study of Rattus norvegicus with 6 samples.

Results

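Matrix-binding integrin subunits were examined in mesenchymal stem cells (MSCs) of rat bone marrow, the stromal progenitors of bone, cartilage and fat cells, held in a hydrogel of either stiffness. The set comprised 10 genes of the 33589 rows of the deposited table, chosen by name: the alpha subunits Itga1, Itga2, Itga3, Itga5, Itga8, Itga11 and Itgav and the beta subunits Itgb1, Itgb3 and Itgb5. Each name matched 1 row. Of the 10, 9 passed the filter on low levels (FPKM averaging 1 or more across 6 libraries, where FPKM is the fragments of a gene scaled by its length and by the size of the library), which 12713 genes passed, and Itga2 lay under it.

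The stiff group held MSCs kept for 48 h in the material that the labels call SA hydrogel at 18 kPa, and the soft group held the same kind of cells kept for 48 h in SA hydrogel at 2 kPa. The design text speaks of quadruplicates, and 3 libraries of polyA RNA per group were analysed here. The labels give bone marrow as the source and name no strain, age or animal for any library, so p-values reflect the spread among these samples alone, and that spread may be technical. Cells were taken out of the gel before library preparation, and no group without a gel was analysed here.

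Integrins are receptors in the cell membrane made of an alpha and a beta subunit. Outside the cell the pair binds matrix proteins, and inside it the beta tail is linked through talin and kindlin to actin, so that integrins carry force between matrix and cytoskeleton. The alpha subunit largely sets the ligand. Itga1, Itga2 and Itga11 pair with Itgb1 to bind collagens, Itga3 with Itgb1 to bind laminins, and Itga5 and Itga8 with Itgb1 to bind proteins that carry the RGD motif, mainly fibronectin and nephronectin. Itgav pairs with several beta subunits, among them Itgb1, Itgb3 and Itgb5, to bind vitronectin, fibronectin, osteopontin and latent TGF-beta.

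Reads recovered from FPKM came to between 14966354 and 16711527 per library. Soft replicate 1 stood apart on the first principal component, at 20.9 against 7.98 and 8.22 for the other soft libraries and -14.2 to -10.3 for the stiff ones, and its share of mitochondrial reads was 2.15%, with 2.85% to 3.33% elsewhere. Some stromal markers were abundant, with Pdgfra at 254.5 FPKM in stiff and 259.6 FPKM in soft gel. Thy1 was at 598.8 FPKM in stiff and 499.2 FPKM in soft gel. Others were lower, as Nt5e, Eng and Vcam1 had means between 14.4 and 16.6 FPKM in either gel. Mcam was at 4.62 FPKM in stiff and 4.58 FPKM in soft gel. Lepr lay at 0.143 FPKM in stiff and 0.101 FPKM in soft gel. Of 10 tested stromal markers none passed the test, and the list summed to 5058.2 to 5774.5 FPKM in stiff and 4521.7 to 5337.0 FPKM in soft libraries. Col1a1 alone was at 3579.3 FPKM in stiff and 3061.5 FPKM in soft gel. All 11 leukocyte and macrophage markers listed also passed the level filter. Their means over the 6 libraries ran from 2.65 FPKM (Ptprc) to 134.2 FPKM (Lyz2). In bulk RNA, fewer cells of a type and less RNA per cell cannot be told apart.

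The comparison of stiff with soft gel asks which integrin subunits changed with the stiffness around the cells. Itga11, a receptor subunit for fibrillar collagens, rose in stiff gel by 1.25-fold and was the only member to pass the test, with 9 tested, while 1.43% of all tested genes passed. No member passed in the lower direction. Over all tested genes 1.01% passed as higher in stiff gel and 0.425% as lower. Itgb1, Itga3, Itga8 and Itgb5 had higher means in stiff gel, between 1.10-fold and 1.15-fold, and Itgav, Itga1, Itgb3 and Itga5 lower ones, between 0.917-fold and 0.977-fold, none of which passed. The log2 fold changes of the 9 had a median of 0.14, with 5 above 0, against a median of 0.0013 and 50.4% above 0 over all tested genes.

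**Figure D1:**
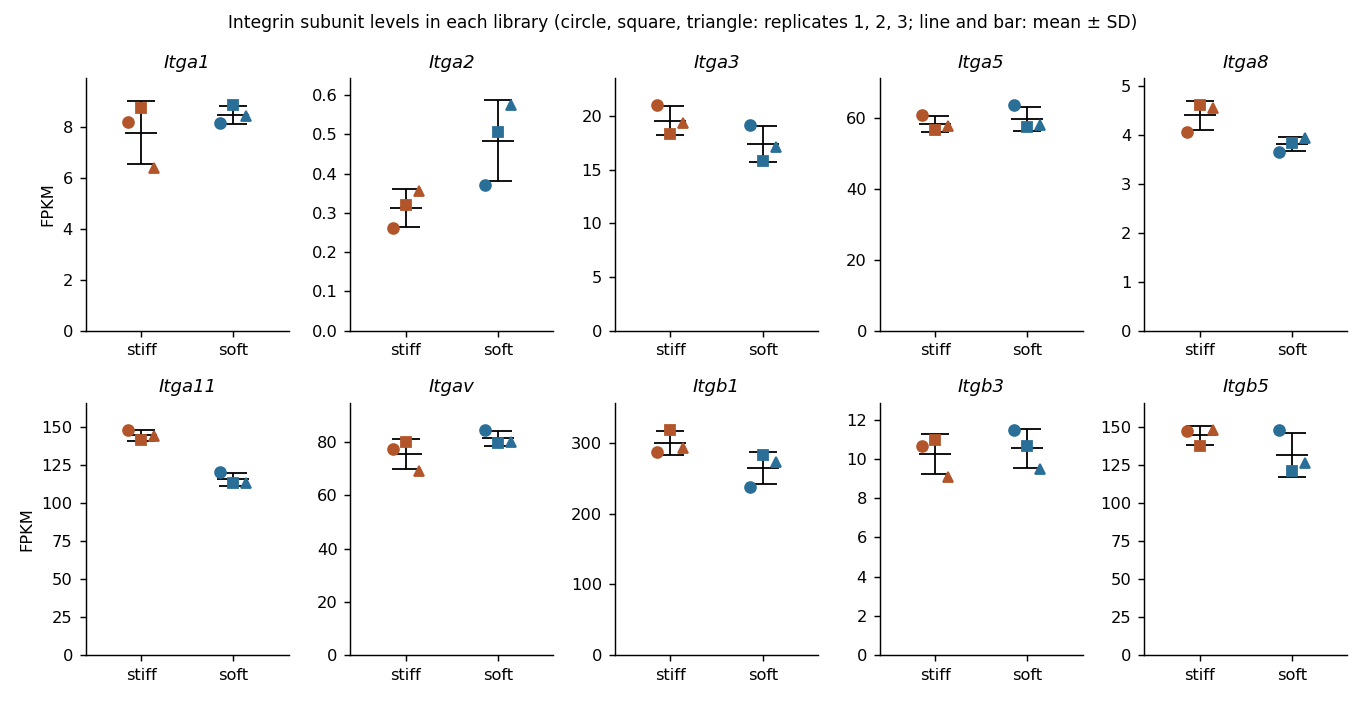
FPKM (vertical axes, from 0) of each subunit in the 3 stiff and the 3 soft libraries, with the mean and SD of each group. Itga11 was at 141.4 to 148.4 FPKM in stiff gel and at 113.2 to 120.9 FPKM in soft gel, while the libraries of Itga1, Itga3, Itga5, Itgav, Itgb3 and Itgb5 overlapped between the groups.

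In every stiff library the level lay above every soft library for Itga8, Itga11 and Itgb1, which is 3 of the 9 tested members, and below every soft library for none of them. Over all tested genes 11.7% were parted in the first way and 10.9% in the second. Itga2, which was not tested, lay below in every stiff library. The FPKM sum over all genes was also higher in every stiff library (467372 to 478304) than in every soft one (452787 to 457306). The levels compared here were not rescaled for it. At equal FPKM sums the log2 fold changes were 0.12 for Itga8, 0.27 for Itga11 and 0.13 for Itgb1, against 0.16, 0.32 and 0.18 without that scaling.

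Itga11 is the collagen receptor subunit typical of fibroblasts and stromal cells. It was at 148.4, 141.4 and 144.6 FPKM in stiff replicates 1 to 3, against 120.9, 113.5 and 113.2 FPKM in soft replicates 1 to 3, from between 10211 and 11177 reads per stiff library and between 8503 and 9370 per soft library. The groups stood apart, and the gap between them (141.4 against 120.9 FPKM) was wider than the spread within either. The means were 144.8 ± 3.53 FPKM in stiff and 115.9 ± 4.35 FPKM in soft gel (SD, n = 3 each), with a log2 fold change of 0.32 (SE 0.0498, 95% interval 0.20 to 0.44, adjusted p = 0.0326 with limma). Of all tested genes, 9.16% had a larger absolute log2 fold change. The call was lost with each library scaled to the same FPKM sum (log2 fold change 0.27, adjusted p = 0.0661), after quantile normalization (0.0551), without the level filter (0.0550) and without the variance trend (0.0866). It was also lost in the 5 fits that left out stiff replicate 1, 2 or 3 or soft replicate 2 or 3 (adjusted p between 0.0899 and 0.160), and held without soft replicate 1 (0.0258).

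Itga1, the other collagen receptor subunit of stromal cells and one that favours network-forming collagens, was at 8.21, 8.74 and 6.37 FPKM in stiff replicates 1 to 3, against 8.14, 8.84 and 8.44 FPKM in soft replicates 1 to 3. Stiff replicate 3 was the lowest of the 6 and the other 5 lay close together. The log2 fold change was -0.12 (SE 0.111, 95% interval -0.38 to 0.14, adjusted p = 0.657), and without stiff replicate 3 it was -0.00017. The Pelo gene lies inside Itga1 on the same strand, at 25.5 FPKM in stiff and 25.3 FPKM in soft gel, so that reads could be assigned to either, and the Itga1 level is uncertain for that reason. Itga2, a collagen receptor subunit best known from platelets and epithelia, was at 0.261, 0.321 and 0.356 FPKM in stiff replicates 1 to 3, against 0.371, 0.506 and 0.574 FPKM in soft replicates 1 to 3. These levels rest on 15, 20 and 23 reads in the stiff libraries and on 24, 32 and 36 reads in the soft ones. In the fit without a level filter its log2 fold change was -0.17 (SE 0.0722, adjusted p = 0.445), on a scale that understates changes at such levels. Itga2 and Itga1 are neighbours on chromosome 2 of the deposited table, at 47000323 to 47096961 and 47127219 to 47281421 and 30257 bases apart on the minus strand. The build behind these coordinates is not stated in the table. Itga11 lies on chromosome 8 there, from 67615635 to 67683973.

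RefSeq promoter sequence on rat build GRCr8 was at hand for 9 of the 10 members. The 250 bases before the annotated start are shown for Itga11, the member that passed the test, at chr8:72041182-72041431 on the plus strand, for its fellow collagen receptor subunit Itga1, at chr2:48545284-48545533 on the minus strand, and for their shared partner Itgb1, at chr19:73602027-73602276 on the plus strand. Capitals mark matches on either strand to GGGCGG (the Sp1 core), GGAATG (a TEAD site) and TGANTCA (an AP-1 site), and to the CArG box of SRF.
Itga11: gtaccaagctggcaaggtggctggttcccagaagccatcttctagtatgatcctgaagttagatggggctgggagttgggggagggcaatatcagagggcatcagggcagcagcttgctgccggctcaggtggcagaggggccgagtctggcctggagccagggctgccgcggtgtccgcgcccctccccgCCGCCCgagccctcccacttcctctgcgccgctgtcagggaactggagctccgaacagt
Itga1: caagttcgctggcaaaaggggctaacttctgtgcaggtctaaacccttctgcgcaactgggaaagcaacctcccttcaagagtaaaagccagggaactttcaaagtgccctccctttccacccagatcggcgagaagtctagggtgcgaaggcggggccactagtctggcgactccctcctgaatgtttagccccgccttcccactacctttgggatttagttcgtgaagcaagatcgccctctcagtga
Itgb1: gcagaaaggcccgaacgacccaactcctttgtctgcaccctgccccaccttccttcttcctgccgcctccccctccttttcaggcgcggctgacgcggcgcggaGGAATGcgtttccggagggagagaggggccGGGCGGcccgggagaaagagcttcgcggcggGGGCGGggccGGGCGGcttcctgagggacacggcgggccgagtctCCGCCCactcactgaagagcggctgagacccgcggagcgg
Itga11 held 1 match to GGGCGG, 59 bases before the start, Itga1 held no match to any of the 4 motifs, and Itgb1 held 4 matches to GGGCGG and 1 to GGAATG, 146 bases before the start. Matches to different motifs did not overlap. Of 21849 rat protein-coding promoters of the same length, 38.9% held GGGCGG, 11% held GGAATG, 5.69% held TGANTCA and 1.52% held a CArG box. Among the 9 members, Itga3 was the only other one with GGAATG, and none held TGANTCA or a CArG box in these bases.

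Itga3, the laminin receptor subunit, was at 21.0, 18.3 and 19.4 FPKM in stiff replicates 1 to 3, against 19.2, 15.8 and 17.1 FPKM in soft replicates 1 to 3. Soft replicate 1 reached into the stiff range. The log2 fold change was 0.17 (SE 0.0858, 95% interval -0.036 to 0.37, adjusted p = 0.415). Without soft replicate 1 the groups did not overlap and the log2 fold change was 0.24 (adjusted p = 0.230).

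Itga5, which makes the main fibronectin receptor with Itgb1, was at 60.7, 56.5 and 57.6 FPKM in stiff replicates 1 to 3, against 63.5, 57.4 and 57.9 FPKM in soft replicates 1 to 3. The groups overlapped almost fully, with a log2 fold change of -0.032 and the narrowest interval of the tested members after Itga11 (95% interval -0.17 to 0.11, adjusted p = 0.856). Itga8, whose best known ligand is nephronectin, was at 4.06, 4.61 and 4.55 FPKM in stiff replicates 1 to 3, against 3.66, 3.85 and 3.95 FPKM in soft replicates 1 to 3. Every stiff library lay above every soft one, but the log2 fold change of 0.16 did not pass (SE 0.0841, 95% interval -0.032 to 0.36, adjusted p = 0.409). Itgav, the alpha subunit of the vitronectin receptors, was at 77.5, 80.1 and 69.2 FPKM in stiff replicates 1 to 3, against 84.7, 79.6 and 80.0 FPKM in soft replicates 1 to 3. Stiff replicate 2 lay inside the soft range and the log2 fold change was -0.11 (SE 0.0672, 95% interval -0.27 to 0.049, adjusted p = 0.494).

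Itgb1, the partner of most matrix-binding alpha subunits, was at 286.8, 318.9 and 293.2 FPKM in stiff replicates 1 to 3, against 238.4, 282.8 and 273.1 FPKM in soft replicates 1 to 3. The stiff libraries lay above the soft ones by a narrow gap, with the lowest stiff library at 286.8 FPKM and the highest soft one at 282.8 FPKM. The log2 fold change of 0.18 did not pass (SE 0.0764, 95% interval 0.00094 to 0.36, adjusted p = 0.322, unadjusted p = 0.0491), and it was 0.11 without soft replicate 1, the lowest library (adjusted p = 0.450). Itgb5, a beta subunit of vitronectin receptors, was at 147.3, 137.4 and 147.9 FPKM in stiff replicates 1 to 3, against 147.9, 120.6 and 126.2 FPKM in soft replicates 1 to 3. Soft replicate 1 lay level with the highest stiff library, whereas the other soft libraries lay below all stiff ones. Its log2 fold change was 0.14 (SE 0.0817, 95% interval -0.055 to 0.33, adjusted p = 0.478) and 0.22 without soft replicate 1 (adjusted p = 0.135). The table gives the Itgb5 row the biotype of a processed transcript. Itgb3, the beta subunit that Itgav shares with the platelet receptor subunit Itga2b, was at 10.7, 10.97 and 9.07 FPKM in stiff replicates 1 to 3, against 11.5, 10.6 and 9.51 FPKM in soft replicates 1 to 3. The groups overlapped, with a log2 fold change of -0.040 (SE 0.0970, 95% interval -0.27 to 0.19, adjusted p = 0.893). The gene AABR07030543.1 lies inside Itgb3 on the same strand, at 0 FPKM in stiff and in soft gel. Its effect on the Itgb3 level was not tested.

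Soft replicate 1, the library that stood apart, was the lowest soft library for Itgb1, Itga1, Itga2 and Itga8 and the highest for Itga3, Itga5, Itga11, Itgav, Itgb3 and Itgb5. Without it, 5 of the 9 tested members (Itga3, Itga8, Itga11, Itgb1 and Itgb5) lay higher in every stiff library, against 17.6% of all tested genes, and none lay lower, against 17.1%. Itga11 was again the only member to pass the test. The fold of stiff over soft means without that library was 1.28 for Itga11, 1.19 for Itga3, 1.17 for Itgb5, 1.13 for Itga8 and 1.08 for Itgb1. The part of the lower mitochondrial share in the levels of this library was not tested.

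**Figure D2:**
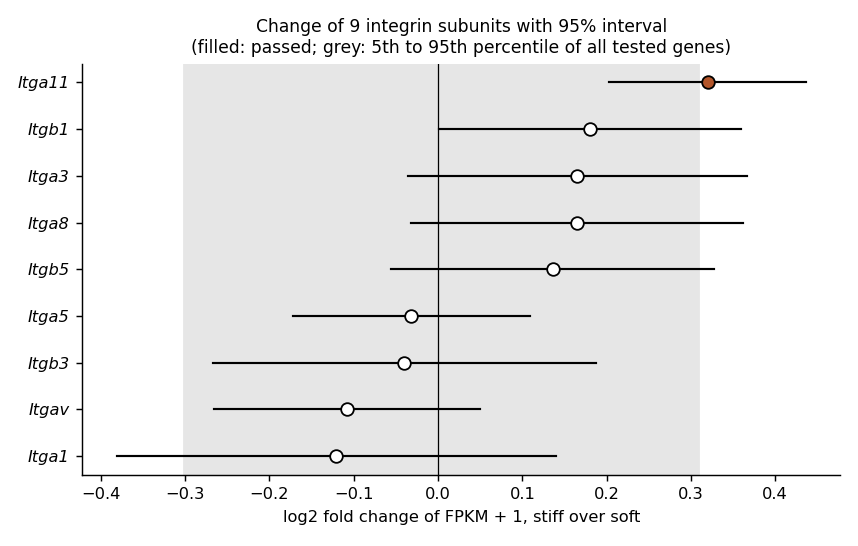
Log2 fold change of FPKM + 1, stiff over soft (horizontal axis), with its 95% interval for the 9 tested subunits, and in grey the range from the 5th percentile (-0.30) to the 95th percentile (0.31) of all tested genes. Itga11 at 0.32 is the only subunit that passed the test, and the intervals of the other subunits include 0, except that of Itgb1, which starts at 0.00094.

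Ordered by mean FPKM, which is scaled by gene length, Itgb1 led in either gel. Comparison between genes rests on the lengths given and on how shared reads were assigned, which is not known. In stiff gel Itga11 (144.8 FPKM) and Itgb5 (144.2 FPKM) came next and overlapped between libraries, followed by Itgav, Itga5, Itga3, Itgb3, Itga1, Itga8 and Itga2. In soft gel Itgb5 (131.6 FPKM) and Itga11 (115.9 FPKM) came next, again with overlapping libraries, and the order of the rest was the same. No other neighbours in either order overlapped, although Itgb3 and Itga1 came close, with lowest and highest libraries of 9.07 and 8.74 FPKM in stiff gel and of 9.51 and 8.84 FPKM in soft gel. The summed FPKM of the 10 genes was 765.0, 777.3 and 752.1 in stiff replicates 1 to 3, against 698.2, 693.7 and 689.9 in soft replicates 1 to 3. Every stiff library had the higher sum, as it also had over all genes (467372 to 478304 in stiff and 452787 to 457306 in soft libraries). The 10 genes held 93.0%, 93.5% and 93.4% of the FPKM of all 25 integrin subunits measured in stiff replicates 1 to 3, and 91.7%, 91.6% and 91.5% in soft replicates 1 to 3. Itgam, which has no row under that name, is not among the 25.

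Itga11 alone made up 46.4%, 45.6% and 47.9% of the summed FPKM of the 7 alpha subunits in stiff replicates 1 to 3, against 40.2%, 40.6% and 40.2% in soft replicates 1 to 3. The stiff libraries lay above the soft ones, and since shares sum to a fixed total those of the other subunits together were smaller. Itgav took 24.2%, 25.8% and 22.9% in stiff gel, against 28.2%, 28.5% and 28.5% in soft gel. Itga5 took 19.0%, 18.2% and 19.1% in stiff gel, against 21.1%, 20.5% and 20.6% in soft gel. Within a library, Itga11 stood at 2.44, 2.50 and 2.51 times Itga5 in stiff replicates 1 to 3, against 1.90, 1.98 and 1.95 times in soft replicates 1 to 3, a ratio that needs no scaling between libraries. Against Itgav, Itga11 stood at 1.91, 1.76 and 2.09 times in stiff replicates 1 to 3, against 1.43, 1.43 and 1.41 times in soft replicates 1 to 3. The groups stood apart in both ratios. Against its partner Itgb1, Itga11 stood at 0.517, 0.443 and 0.493 times in stiff replicates 1 to 3. In soft replicates 1 to 3 it stood at 0.507, 0.401 and 0.414 times Itgb1, and in this ratio the groups overlapped. The 3 collagen-binding subunits together took 49.0%, 48.5% and 50.1% of the alpha sum in stiff gel, against 43.1%, 43.9% and 43.5% in soft gel. These shares and ratios are descriptions and were not tested.

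The summed FPKM of the 6 alpha subunits other than Itgav, which pair with Itgb1, was 0.846, 0.721 and 0.794 times that of Itgb1 in stiff replicates 1 to 3, against 0.905, 0.707 and 0.736 times in soft replicates 1 to 3. The groups overlapped. Among the beta subunits Itgb1 made up 64.5%, 68.2% and 65.1% in stiff gel, against 59.9%, 68.3% and 66.8% in soft gel. Itgb3 made up 2.40%, 2.35% and 2.01% in stiff gel, against 2.89%, 2.57% and 2.33% in soft gel, so that neither share parted the groups.

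**Figure D3:**
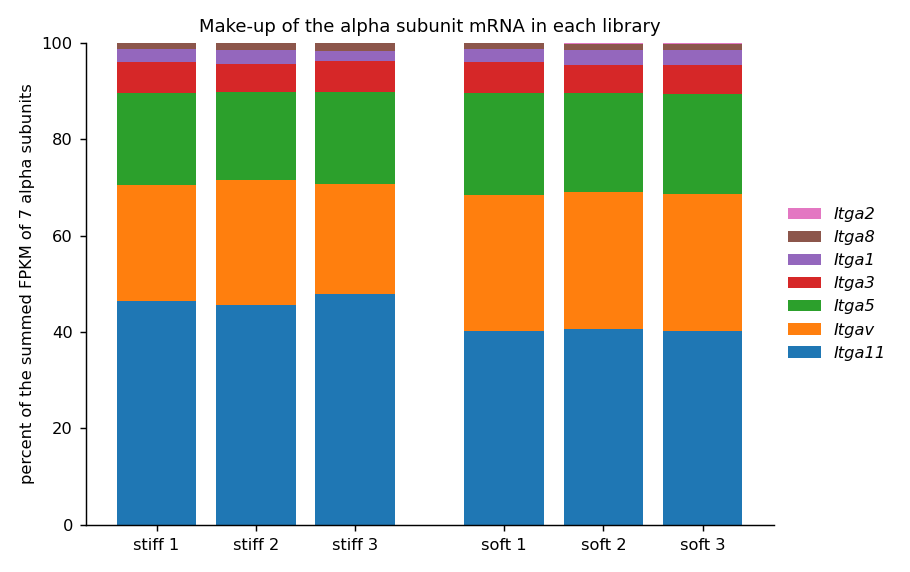
Share of each alpha subunit in the summed FPKM of the 7 (vertical axis, percent) in each library. Itga11 is the lowest segment, at 45.6% to 47.9% in the stiff libraries and 40.2% to 40.6% in the soft ones, and Itgav and Itga5 above it are smaller in stiff gel.

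Of the 16 other integrin subunits of rodents, 15 had a row in the table, all but Itgam, and 10 were tested. Itgal, the alpha subunit of the leukocyte receptor LFA-1, rose to 8.47 ± 0.264 FPKM in stiff gel, against 5.78 ± 0.552 FPKM in soft gel (log2 fold change 0.49, adjusted p = 0.0427). Itgb2, the beta subunit that leukocyte alpha subunits including Itgal share, fell to 19.0 ± 0.639 FPKM in stiff gel, against 24.5 ± 0.865 FPKM in soft gel (log2 fold change -0.35, adjusted p = 0.0395). The median log2 fold change of the 10 was -0.13. Of all tested genes 1.01% passed as higher and 0.425% as lower. Itgal passed without soft replicate 1 (adjusted p = 0.0365) but not without any other 1 library (adjusted p between 0.125 and 0.168), and Itgb2 passed in none of the 6 fits that left out 1 library (adjusted p between 0.0642 and 0.158). Itgal was also lost at equal FPKM sums (0.0630), without the level filter (0.102) and without the variance trend (0.0554), and Itgb2 without the level filter (0.0574) and without the variance trend (0.0696).

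Of the 11 leukocyte and macrophage markers, Cd68 and Cd53 passed as lower in stiff gel and Adgre1 as higher. The others did not pass. By comparison, 1.01% of all tested genes passed as higher and 0.425% as lower. The groups did not overlap for 5 of the 11, against 22.6% of all tested genes. Of these markers, Adgre1 lay higher in stiff gel and Cd68, Cd53, Lyz2 and Tyrobp lower. The summed FPKM of the 11 was 380.2 to 409.8 in the stiff libraries and 431.9 to 437.7 in the soft ones, and none was at 0. The largest difference of means was that of Lyz2, at 119.4 FPKM in stiff and 148.9 FPKM in soft gel (adjusted p = 0.0606 with limma). The part of leukocytes in the results for Itgal, Itgb2 or the matrix-binding subunits was not tested. Of the 8 osteoclast markers, which matter for Itgav and Itgb3, 3 were tested and none passed, and Calcr and Dcstamp had no read in any library. Their summed level was 465.4 to 471.5 FPKM in stiff and 484.2 to 506.7 FPKM in soft gel, a difference carried by Mmp9 at 234.1 FPKM in stiff and 263.4 FPKM in soft gel. Ctsk was at 200.1 FPKM in stiff and 198.6 FPKM in soft gel, and Acp5 at 33.1 FPKM in stiff and 34.0 FPKM in soft gel, both with overlapping libraries. Of the 7 platelet and megakaryocyte markers, Pf4 was at 427.5 FPKM in stiff and 413.7 FPKM in soft gel, and the other 6, Itga2b among them, lay under 1 FPKM. The 8 smooth muscle and pericyte markers summed to 152.1 to 165.2 FPKM in stiff and 78.1 to 85.2 FPKM in soft gel, a difference carried by Acta2, which rose to 123.5 FPKM in stiff gel, against 47.0 FPKM in soft gel. The other 6 tested markers of that list did not pass, with ratios of stiff to soft means between 0.802 (Kcnj8) and 1.23 (Des), and Rgs5 had no read. The part of such cells in the higher Itga11 was not tested. Endothelial markers summed to 1.07 to 1.11 FPKM in stiff and 1.35 to 1.598 FPKM in soft gel over 7 genes, with Cldn5 at 0. Epithelial markers summed to 2.15 to 3.24 FPKM in stiff and 1.90 to 2.81 FPKM in soft gel over 6 genes, with Krt19 and Cldn4 at 0.

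Ligands were taken from lists of collagens and of RGD proteins and laminins. Of 11 tested collagens, Col11a1, a minor fibrillar collagen, was the only one to pass. It rose to 99.9 ± 2.59 FPKM in stiff gel, against 67.3 ± 1.04 FPKM in soft gel (adjusted p = 0.00377 with limma). The list's median log2 fold change was -0.11. Every stiff library lay above every soft one for 3 of the 11 and below for 2, against 11.7% and 10.9% of all tested genes. Of 20 tested glycoproteins and laminins 5 passed as higher and 1 as lower, with a median of -0.061. Over all tested genes 1.01% passed as higher and 0.425% as lower. Ccn2 and Ccn1, matricellular proteins that bind Itgav dimers, rose by 0.94 and 0.49 on the log2 scale. Thbs1, a trimeric matricellular protein, rose by 0.69, and Ltbp1, which stores latent TGF-beta in matrix, rose by 0.48. Ccn1 and Ltbp1 no longer passed without stiff replicate 1 (adjusted p = 0.0546 for Ccn1 and 0.0603 for Ltbp1) or without soft replicate 3 (0.0536 for both). The other calls, named after their values were seen, were Tnc (tenascin C), which rose by 0.42, and Ibsp, a bone sialoprotein bound by Itgav and Itgb3, which fell by 0.45 on the log2 scale.

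The main ligands of Itga5 and Itga8 dimers, picked out after their values were seen, did not pass. Fn1 (fibronectin) was at 4581.4, 4475.8 and 4088.5 FPKM in stiff replicates 1 to 3, against 5177.6, 4706.3 and 4759.4 FPKM in soft replicates 1 to 3. Every stiff library lay below the soft ones (log2 fold change -0.16, adjusted p = 0.303). Npnt (nephronectin) was at 22.6, 20.7 and 19.4 FPKM in stiff replicates 1 to 3, against 17.3, 15.7 and 17.1 FPKM in soft replicates 1 to 3. It lay above in every stiff library (log2 fold change 0.30, adjusted p = 0.122).

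None of 23 tested activators and adaptors of integrin tails passed in limma, where 5 lay below 0.05 before adjustment. Those 5, listed after their values were seen, were Fermt2 (a kindlin), Vcl and Ilk, higher in stiff gel, and Fermt3 and Tns1, lower. Their adjusted p lay between 0.0851 and 0.313. Of the 23, voom also passed 0, and their median log2 fold change was 0.010. Among all 12713 tested genes, 1960 lay below 0.05 before adjustment in limma, and voom passed 318. Ilk, an adaptor that binds beta tails, was at 111.5 ± 4.58 FPKM in stiff and 102.3 ± 2.05 FPKM in soft gel (adjusted p = 0.313). Rap1b, a small GTPase that promotes integrin activation, was at 165.5 ± 10.9 FPKM in stiff and 162.0 ± 18.5 FPKM in soft gel (adjusted p = 0.899). None of 15 tested inhibitors and trafficking proteins passed either, where 2 lay below 0.05 before adjustment and voom passed 1, with a median of 0.013. Flna, an actin crosslinker that competes with talin for beta tails, was at 190.1 ± 9.55 FPKM in stiff and 159.5 ± 3.41 FPKM in soft gel (log2 fold change 0.25, adjusted p = 0.0799), and it was the one that voom passed (adjusted p = 0.0356). Arf6, a GTPase of integrin recycling, was at 152.9 ± 19.6 FPKM in stiff and 157.5 ± 19.5 FPKM in soft gel (adjusted p = 0.903).

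Of 16 tested membrane partners, Cav1, the caveolar coat protein, was the only one to pass, while 1.43% of all tested genes passed. Cav1 rose to 74.9 ± 4.62 FPKM in stiff gel, against 53.1 ± 5.33 FPKM in soft gel (log2 fold change 0.49, adjusted p = 0.0443). The list's median was 0.042. Cav1 no longer passed when any 1 library was left out (adjusted p between 0.0533 and 0.155), at equal FPKM sums (0.0631), after quantile normalization (0.0791), without the level filter (0.104) or without the variance trend (0.0854).

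**Figure D4:**
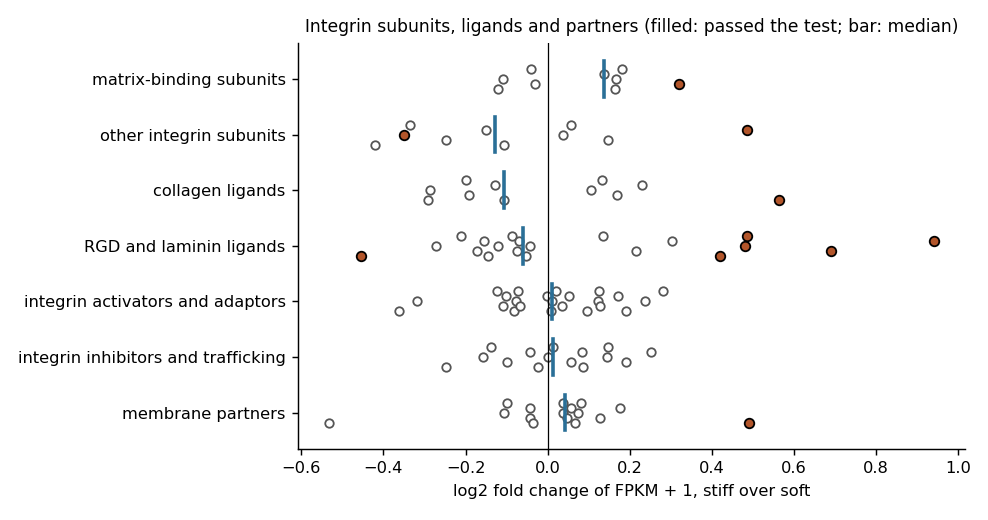
Log2 fold change of FPKM + 1, stiff over soft (horizontal axis), of each tested gene in 7 lists of integrin subunits, ligands and partners, with the median of each list as a vertical bar. The genes that passed the test are the filled points, among them 1 matrix-binding subunit (Itga11), 2 other subunits (Itgal and Itgb2), 7 ligands and Cav1.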

How the data were processed

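PolyA RNA was measured in 6 libraries, 3 stiff and 3 soft, and the authors deposited FPKM per gene with gene lengths in 1 table. Alignment and counting used Bowtie 0.12.9, HTSeq and Cufflinks 2.1.1, per the submitters' processing notes. Those notes list GRCm38 and mm10, which are mouse builds, although the gene identifiers are those of rat in Ensembl. The sources used here do not give how strand and multiple mapping were treated.

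Reads per gene were recovered from FPKM and gene length, with 100% of values whole within 0.001. Stiff was compared with soft on log2(FPKM + 1) in limma 3.58.1 (R 4.3.3), group as the only term, with a variance trend, two-sided tests and a threshold of 0.05 on Benjamini-Hochberg adjusted p over the 12713 genes whose mean FPKM reached 1. A fold change on this scale understates low genes; fold values without "log2" are ratios of mean FPKM. Of all tested genes 128 passed as higher and 54 as lower, against 88 and 68 at equal FPKM sums and 103 and 68 after quantile normalization. No exact test of ranks was used, since 3 against 3 cannot go below 0.1.

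The members and lists were chosen with earlier results of these data known. The text names all 10 members and, from each list, up to 4 genes that passed with the smallest p or, with none, the 2 most abundant. Replicates of a group were no copies of each other, since the chi-square per degree of freedom was 3.57 or more in every pair. Alternatives changed the pseudocount (0.1, 5), filter, scaling, variance model, weights and threshold, used voom on recovered reads, added a replicate block or left out each library.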

Additional observations from a re-analysis of the deposited data

How the results depend on the processing

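Itga11 kept its direction under all 16 alternatives (log2 fold change 0.26 to 0.36, adjusted p 0.0036 to 0.16) and passed under 6 of them. The count of passing members was 1, as reported, and 0 without the level filter, at equal FPKM sums, after quantile normalization, without the variance trend and with the replicate block (Itga11 adjusted p = 0.0508), and 0 to 1 when 1 library was left out. The count of passing genes was 182, and it was 92 without the level filter, 112 without the variance trend, 685 with array weights, 105 with the replicate block, 318 with voom, 382 at a threshold of 0.1 and 26 to 159 when 1 library was left out. The causes were not tested. Fits that left out 1 library also had fewer samples, and 159 genes passed without soft replicate 1 but 26 to 54 without any other library.

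Over all tested genes the replicate numbers gave no clear sign of pairing. Deviations from group means correlated at 0.0552, 0.116 and -0.0785 for numbers 1, 2 and 3, and stiff replicate 3 correlated best with soft replicate 1. With so few libraries per group, these correlations cannot exclude a pairing. With the block, the calls of Itgal (adjusted p = 0.0826) and Itgb2 (0.0792) were also lost.

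Of the other members, Itga1, Itga3, Itga8, Itgav, Itgb1 and Itgb5 kept their direction and did not pass under any alternative run; a mean of at least 5 FPKM leaves no value for Itga8. Directions that turned, all without a call, were those of Itga5 (0.016 with array weights, and -0.061 to 0.013 when 1 library was left out), Itgb3 (0.052 with array weights, and -0.11 to 0.037 when 1 library was left out), Rap1b (-0.048 with array weights, -0.029 with quantile normalization, -0.013 with FPKM sums made equal, and -0.060 to 0.098 when 1 library was left out) and Arf6 (0.011 with array weights, and -0.13 to 0.063 when 1 library was left out). Depth limits Itga2, with at most 36 reads per library.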
